A study of Mus musculus with 8 samples.

Results

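The heat shock and endoplasmic reticulum chaperones described here are the mouse genes whose symbols start with Hspa, Hspb, Hspd, Hspe, Hsph, Hsp90, Dnaja, Dnajb, Dnajc or Pdia, apart from Hspb1. On Affymetrix Mouse Genome 430 2.0 arrays hybridised with RNA of trigeminal ganglia, 76 of 18193 measured genes met this rule, with 180 of 45037 probe sets. Each gene was represented by its brightest probe set with a single symbol, and the others served as a check. The rule used names alone and no measured value. By their spelling it also took Hspbp1, a nucleotide exchange factor of Hsp70, and Hspbap1, a protein that binds a small heat shock protein. Hsp90ab1 and Dnajc19, whose probe sets carry several symbols, were not analysed here. The ganglia came from adult male C57B/6XCBA mice: 4 arrays held control animals and 4 held animals transgenic for daDREAM, whose titles carry the tag tg16. DREAM (gene Kcnip3) represses transcription until calcium binds it, and daDREAM is a mutant made to remain active. The sources used here do not say which promoter drives the transgene, whether tg16 is 1 line, or how many animals one array holds. The arrays of a group are named biological replicates, and the p-values measure the spread between them. All values are log2 RMA expression values, and a difference is daDREAM minus control.

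Chaperones bind unfolded protein and help it to fold. Hsp70 proteins (Hspa) hold and release a client with ATP, J proteins (Dnaj) bring clients and start the ATPase, and Hsp110 proteins (Hsph1, Hspa4, Hspa4l) exchange the nucleotide. Hsp90 proteins finish clients such as kinases, small heat shock proteins (Hspb) hold aggregating protein without ATP, and protein disulfide isomerases (Pdia) form disulfide bonds in the endoplasmic reticulum. Cytosolic heat shock genes answer to the factor Hsf1 through heat shock elements. Genes of the reticulum answer to the unfolded protein response, in which Atf6 and spliced Xbp1 act on the ER stress response element. Sensory neurons carry long axons and secrete peptides, which are folded in the endoplasmic reticulum.

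The promoter sequences of the chaperones were searched for exact matches to these elements. Near matches were not counted, so a window without a match may still hold an element. RefSeq windows of assembly GRCm38.p6, from 250 bases before to 50 after a transcription start, existed for 63 of the 76 genes. The ER stress response element was searched on both strands as CCAAT, 9 bases of any kind and CCACG. It stood in 0.119% of 32851 windows and in those of 4 chaperone genes, Hspa5, Pdia6, Hsp90b1 and Dnajc3. They are printed with Creld2, a gene of the same response that passed the test below, in the sense of each gene, with the match in capitals.
Hspa5, chr2:34771840-34772089, plus strand: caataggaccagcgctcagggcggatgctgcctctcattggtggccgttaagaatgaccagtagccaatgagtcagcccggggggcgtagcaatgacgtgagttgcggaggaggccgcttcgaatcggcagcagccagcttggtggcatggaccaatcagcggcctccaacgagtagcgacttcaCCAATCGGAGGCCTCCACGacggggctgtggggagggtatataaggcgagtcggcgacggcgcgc
Pdia6, chr12:17266471-17266529, plus strand: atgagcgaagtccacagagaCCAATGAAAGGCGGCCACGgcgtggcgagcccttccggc
Hsp90b1, chr10:86705513-86705676, minus strand: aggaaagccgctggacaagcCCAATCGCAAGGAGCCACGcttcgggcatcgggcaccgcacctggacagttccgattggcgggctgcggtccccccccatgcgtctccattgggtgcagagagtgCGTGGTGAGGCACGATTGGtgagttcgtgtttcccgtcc
Dnajc3, chr14:118937807-118937865, plus strand: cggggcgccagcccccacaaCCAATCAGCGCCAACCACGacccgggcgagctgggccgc
Creld2, chr15:88819515-88819543, plus strand: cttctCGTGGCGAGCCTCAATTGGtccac
The Hspa5 match lay from base -65 to base -47 relative to the start, the Pdia6 match from -98 to -80 and the Dnajc3 match from -105 to -87. Hsp90b1 held 2 matches, from -212 to -194 and, in the opposite sense, from -107 to -89. The Creld2 match ran in the opposite sense, from -126 to -108. The related element, ATTGG, 1 base of any kind and CCACG, stood in 0.0365% of windows and, among the chaperones, in that of Dnajb11, from base 8 to base 18 after the start. The shorter element TGACGTGG stood in 0.676% of windows and in that of Dnajc25.

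The heat shock element was looked for in the same windows. Searched on both strands as GAANNTTC, 2 bases of any kind and GAA, it stood in 0.603% of windows and in those of Dnajb6, Hspd1, Hspe1 and Hsph1. The short form GAANNTTC, which lies inside the longer one, stood in 7.86% of windows and in those of 13 chaperone genes, the stress-inducible pair Hspa1a and Hspa1b among them. Of these, 3 are printed with the match in capitals, for Hspe1 and Dnajb6 the longer element and for Hspa1b the short one.
Hspe1, chr1:55088053-55088082, plus strand: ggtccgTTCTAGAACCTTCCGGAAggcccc
Dnajb6, chr5:29735832-29735884, plus strand: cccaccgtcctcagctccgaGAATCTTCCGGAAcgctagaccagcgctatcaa
Hspa1b, chr17:34959315-34959362, minus strand: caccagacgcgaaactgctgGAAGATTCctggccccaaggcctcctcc
The Dnajb6 match lay from -46 to -34 of 1 annotated start and, the same bases, from -127 to -115 of another. The capitals of Hspe1 cover 2 overlapping matches, in opposite senses. Hspe1 and Hspd1, which encode partner subunits of the mitochondrial chaperonin, both lie on chromosome 1.

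Among the 76 chaperones, Hspa5 rose in daDREAM ganglia and the other 75 did not pass the limma test. Hspa5 encodes BiP, the Hsp70 of the endoplasmic reticulum, and it was 1.40-fold higher. A gene passed at a Benjamini-Hochberg adjusted p under 0.05 over all 18193 genes, of which 2.00% passed, 0.984% higher and 1.02% lower. At an unadjusted p under 0.05 there were 15 higher and 5 lower chaperones, 26.3% of them against 18.2% of all genes (8.89% higher, 9.29% lower). Groups did not overlap in 14 chaperones, 12 higher and 2 lower, which is 18.4% against 10.7% of all genes (910 genes higher, and 1043 genes or 5.73% lower). The difference was above 0 for 51 chaperones (67.1%), against 50.5% of all genes, and the median was 0.07, against 0.00 for all genes.

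**Figure D1:**
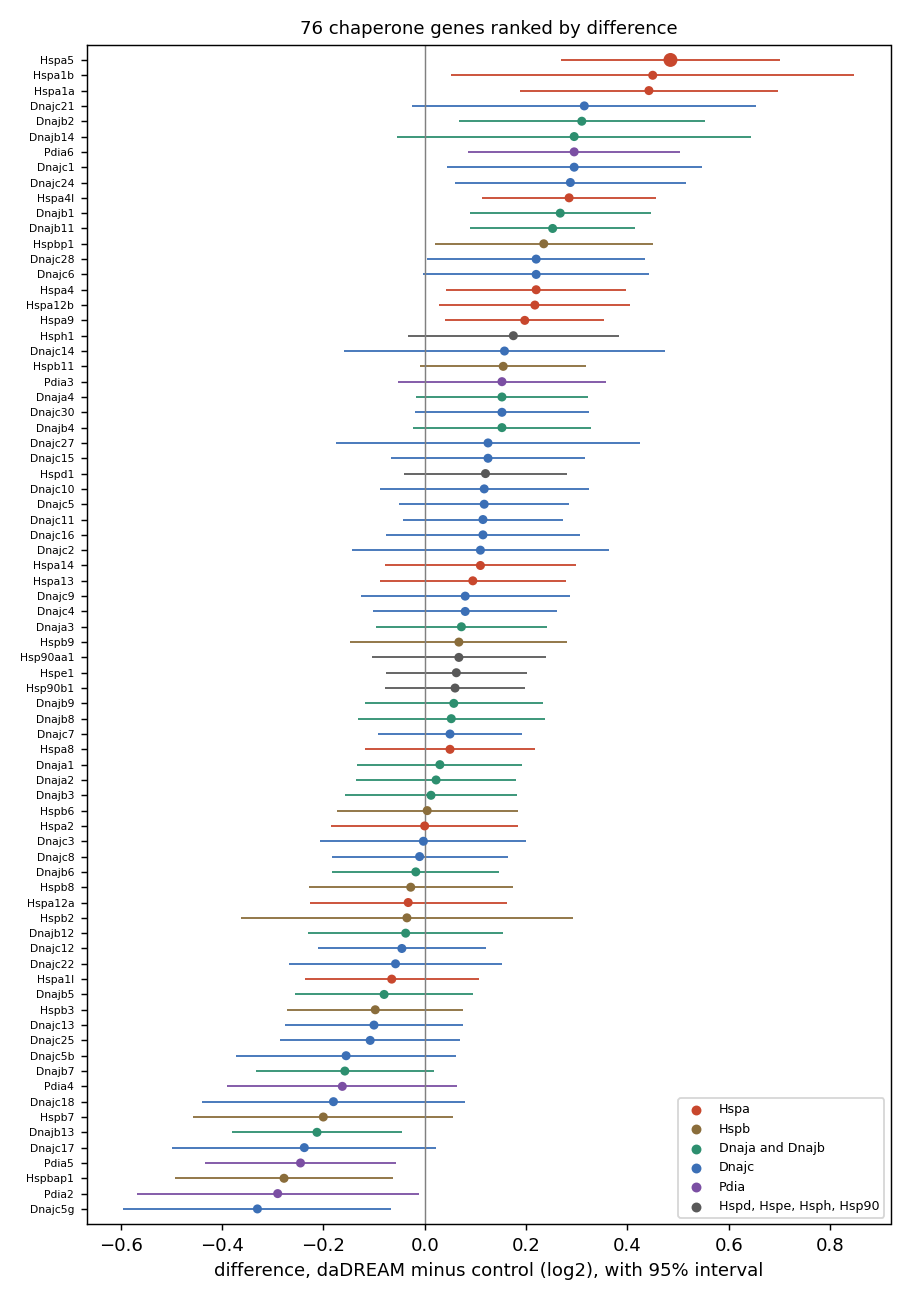
Differences between daDREAM and control arrays (log2, x axis) of the 76 chaperone genes, ranked, with 95% limma intervals over 4 arrays per group; colours mark gene families and the large point marks Hspa5, the 1 gene past the adjusted test. Differences run from -0.33 (Dnajc5g) to 0.49 (Hspa5), and 51 points lie to the right of 0.

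The level of a gene went with the sign of its difference, in the chaperones and in all genes. Of 56 chaperones with a mean of at least 8, 44 differences were above 0 (78.6%), against 66.1% of all genes that bright. In these, 11 had an unadjusted p under 0.05 (19.6%), against 18.5% of all genes that bright. All 11 were higher, and 13.0% of all genes that bright were higher at that p. Of the 20 dimmer chaperones 7 were above 0 (35%), against 35.1% of all genes that dim. Of these 20, 9 had an unadjusted p under 0.05 (45%), 4 higher (20%) and 5 lower. Of all genes that dim, 17.8% had such a p, 4.9% higher and 12.9% lower. Over all genes the median difference was -0.07 at levels from 5 to 7 and 0.05 to 0.07 at levels from 8 to 11. The part of this slope in the chaperones' differences was not tested.

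**Figure D2:**
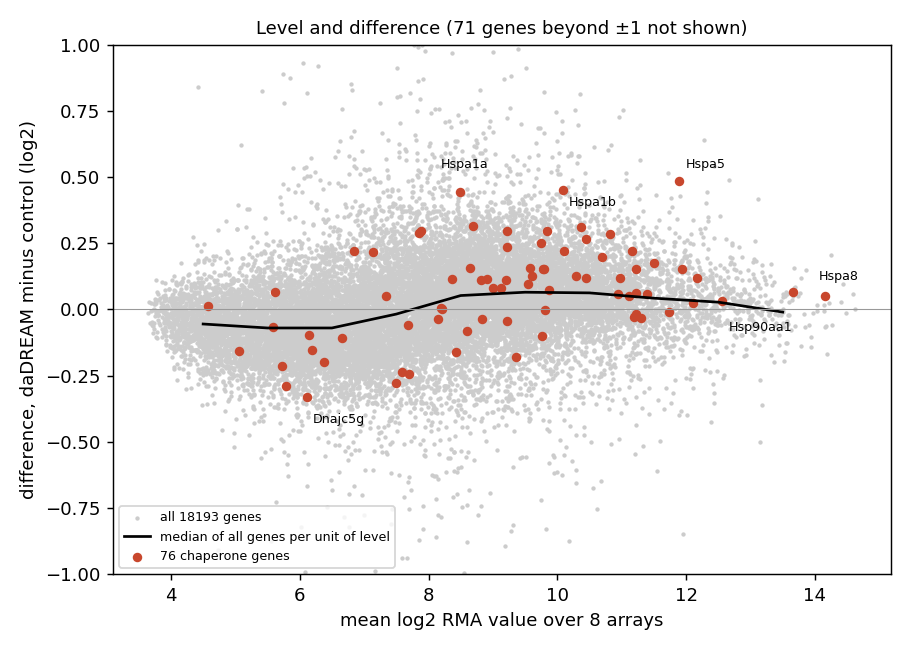
Mean log2 RMA value over 8 arrays (x axis) and difference between daDREAM and control (log2, y axis) for all 18193 genes in grey and the 76 chaperones in red, with 71 genes beyond 1 in size not drawn; the black line joins medians of all genes per unit of level. The line is below 0 at dim levels and above 0 between 8 and 13, and Hspa5 stands at the upper edge of the chaperones.

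Hspa5 was measured by 3 probe sets. The brightest read 11.70, 11.77, 11.69 and 11.44 on the 4 control arrays and 11.94, 12.25, 12.08 and 12.27 on the 4 daDREAM arrays. The groups did not overlap, and control replicate 4 was the lowest array. The difference was 0.49 (SE 0.10, 95% interval 0.27 to 0.70, limma adjusted p = 0.0276). The next probe set read 10.80, 10.80, 10.71 and 10.77 in control and 11.21, 11.20, 11.18 and 11.20 in daDREAM ganglia, so that both groups were tight and far apart. Here the rise was 0.43, with a limma adjusted p of 0.00343 over 45037 probe sets, of which 2.74% passed. The dimmest probe set read 9.45 to 9.60 in control and 9.35 to 9.42 in daDREAM ganglia, a difference of -0.11 that did not pass (adjusted p = 0.405). It stands against the other pair in sign, and its group ranges did not overlap either. The mean over the 3 probe sets differed by 0.27 (limma adjusted p = 0.0335).

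The call of the brightest Hspa5 probe set depended on single arrays. It was kept without control replicate 2 (limma adjusted p = 0.0376) and without daDREAM replicate 1 (0.0232). It missed the threshold without control replicate 1 (0.0641), 3 (0.0535) or 4 (0.0508) and without daDREAM replicate 2 (0.105), 3 (0.0674) or 4 (0.0784), while the difference stayed between 0.42 and 0.55. These p-values were adjusted over 18193 genes. Adjusted over 45037 probe sets instead, the brightest passed in 5 of 8 fits (limma adjusted p = 0.0188 to 0.087). The second probe set, also adjusted over probe sets, passed in all 8 of these fits, with limma adjusted p from 0.00624 to 0.0159. It also passed with an unequal-variance test per probe set (0.0366). With control replicates 1 and 3, the arrays highest in the muscle actin Acta1, left out, it read 0.41 (limma adjusted p = 0.0510), and with control replicate 3 and daDREAM replicates 3 and 4, the arrays highest in growth hormone (Gh), left out, 0.42 (adjusted p = 0.137).

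**Figure D3:**
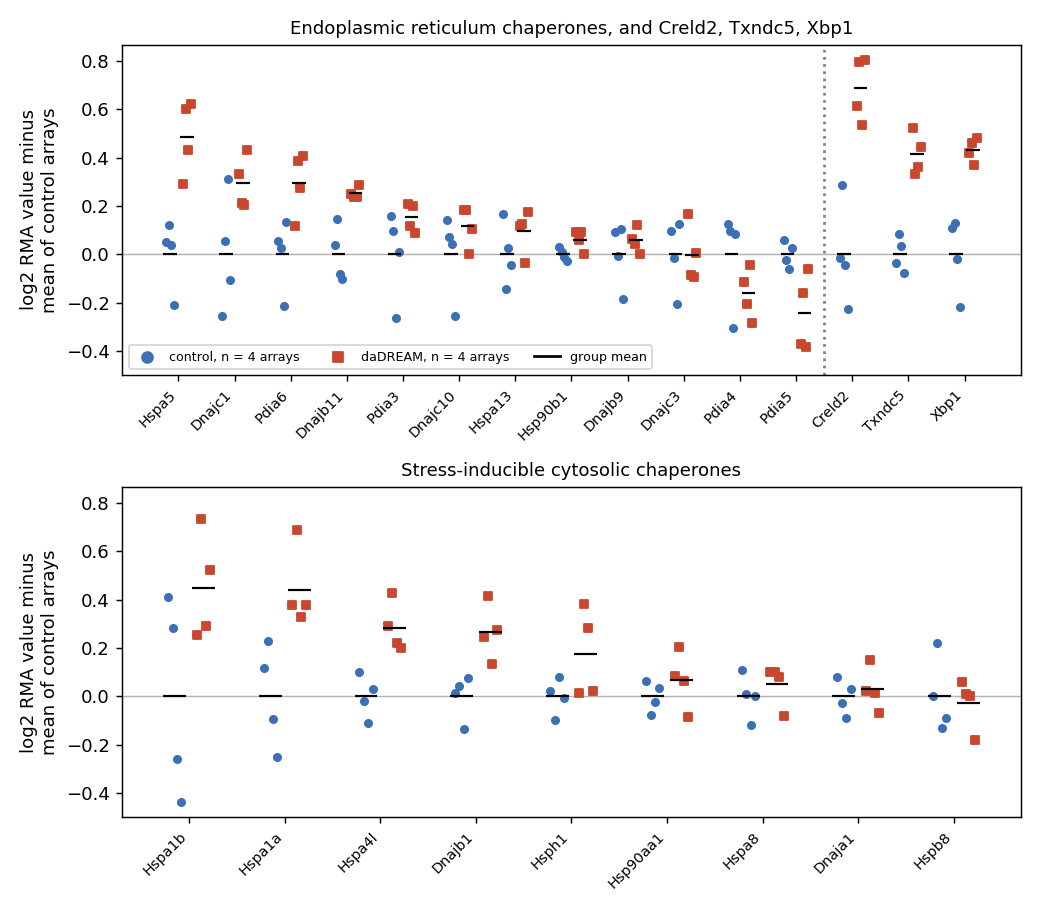
Each array's log2 RMA value minus the mean of the 4 control arrays (y axis, log2) for the 12 endoplasmic reticulum chaperones and Creld2, Txndc5 and Xbp1 (upper panel) and for the 9 stress-inducible cytosolic chaperones (lower panel); blue circles are control arrays, red squares daDREAM arrays and black bars group means. Groups are apart in Hspa5, Dnajb11, Creld2, Txndc5 and Xbp1 above and in Hspa1a, Hspa4l and Dnajb1 below.

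The remaining 11 chaperones of the endoplasmic reticulum did not pass. Of the 12 in all, 10 had a mean of at least 8, and 66.1% of all genes that bright were above 0. Among the 12, 9 differences were above 0, with a median of 0.11. Their summed signal was 13.97 to 14.13 on control arrays and 14.21 to 14.26 on daDREAM arrays, without overlap, and Hspa5 is part of that sum. Dnajb11, the J protein that hands substrates to BiP, read 9.66, 9.77, 9.54 and 9.52 in control and 9.87, 9.86, 9.86 and 9.91 in daDREAM ganglia. The daDREAM arrays were nearly equal and all above control, yet the difference of 0.25 (SE 0.07) had a limma adjusted p of 0.120. Pdia6, a disulfide isomerase that works with BiP, read 9.74, 9.71, 9.47 and 9.82 against 9.80, 10.07, 9.96 and 10.09. These groups overlapped by 1 array (difference 0.29, adjusted p = 0.149).

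Hsp90b1, the Hsp90 of the reticulum known as GRP94, carries 2 of the exact promoter matches printed above, and neither of its probe sets passed. It read 11.40, 11.38, 11.36 and 11.34 in control and 11.46, 11.43, 11.46 and 11.37 in daDREAM ganglia. The difference was 0.06 with a 95% interval from -0.08 to 0.20 (limma adjusted p = 0.641), which leaves out the 0.49 of Hspa5. The other Hsp90b1 probe set read 10.75 to 11.01 and 11.02 to 11.26, a difference of 0.26 without overlap (adjusted p = 0.143 over probe sets). Dnajc3, known as P58IPK, the inhibitor of the kinase Perk, read 9.60 to 9.93 in control and 9.71 to 9.97 in daDREAM ganglia. Its difference was 0.00 (95% interval -0.21 to 0.20) at the brightest of 5 probe sets, and the others ran from -0.06 to 0.24.

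Of the rest of the reticulum, Dnajc1, a J protein of its membrane, read 7.48 to 8.05 in control and 7.94 to 8.17 in daDREAM ganglia (difference 0.29, limma adjusted p = 0.214). Dnajc10, which reduces disulfides on misfolded protein, differed by 0.12, Hspa13, a microsomal Hsp70, by 0.10 and Dnajb9, a J protein of degradation, by 0.06. Among the isomerases Pdia3, which serves glycoproteins, read 11.60 to 12.02 against 11.95 to 12.07, a difference of 0.15. Pdia5 and Pdia4 pointed down. Pdia5 read 7.87, 7.79, 7.75 and 7.84 in control and 7.44, 7.65, 7.43 and 7.75 in daDREAM ganglia (difference -0.25, adjusted p = 0.179), and Pdia4 differed by -0.16. Over the 5 Pdia genes 2 differences were above 0 and the median was -0.16, with none past the test.

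Other genes of the unfolded protein response and of folding in the reticulum were read from a list of 34 genes, 32 of them measured. Of these, 3 rose, 0 fell and 29 did not pass, while 2.00% of all genes passed. Differences were above 0 in 25 (78.1%), with a median of 0.10. At an unadjusted p under 0.05 there were 9 higher and 1 lower (31.2%). Groups did not overlap in 9 (28.1%), 8 higher and 1 lower. A mean of at least 8 was seen in 28 of the 32. Of all genes that bright, 66.1% were above 0, 18.5% had such a p and 11.4% had groups without overlap. Creld2, a secreted protein of the stress response, read 7.99, 8.29, 7.96 and 7.78 in control and 8.62, 8.80, 8.54 and 8.81 in daDREAM ganglia, a rise of 0.69 or 1.61-fold (limma adjusted p = 0.00657). Xbp1, the factor whose spliced form drives the response, read 11.43, 11.45, 11.30 and 11.10 against 11.74, 11.78, 11.69 and 11.80, a rise of 0.43 (adjusted p = 0.0254). Neither gene's groups overlapped. With 1 array left out Creld2 passed in all 8 fits and Xbp1 in 3 of 8: Xbp1 missed the threshold without control replicate 3 or any 1 of the 4 daDREAM arrays (limma adjusted p = 0.0595 to 0.0915). The mean over the Xbp1 probe sets differed by 0.22 (adjusted p = 0.0826). The arrays do not separate spliced from unspliced Xbp1 in the annotation used here.

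Txndc5, a thioredoxin-domain isomerase of the reticulum, was the third. It read 9.71, 9.83, 9.78 and 9.67 in control and 10.27, 10.08, 10.11 and 10.19 in daDREAM ganglia, a rise of 0.41 (limma adjusted p = 0.0117), and another probe set gave a rise of 0.65 (adjusted p = 0.00199). Of the other Xbp1 probe sets, 1 rose by 0.35 (adjusted p = 0.0215), 1 read 0.34 without passing and the dimmest -0.23. The genes of this list closest to the threshold were Derl2, a channel component of degradation, at 0.36 (limma adjusted p = 0.0543 over genes and 0.0468 over probe sets) and Atf6b, a relative of Atf6, at 0.43 (adjusted p = 0.0619). The other Derl2 probe set differed by 0.13, and its groups overlapped (limma adjusted p = 0.513 over probe sets). Sel1l, the partner of the ligase Syvn1, differed by 0.28 at its brightest probe set without passing, while 2 of its others rose, by 0.34 and 0.41 (limma adjusted p = 0.0262 and 0.0409 over probe sets). Hyou1, the Hsp110-like partner of BiP, pointed down: 9.53, 9.44, 9.42 and 9.75 against 9.28, 9.25, 9.25 and 9.32, without overlap (difference -0.26, adjusted p = 0.146). Hyou1 and Sel1l were named after their values were seen.

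Without both arrays with the most Acta1, or without the 3 with the most Gh, none of the 3 genes passed limma, nor did any without control replicates 1 and 4, the pair lowest in Gfap, the filament of astrocytes. Their differences then lay between 0.36 and 0.69. In the same fits the brightest Hspa5 probe set read 0.53, 0.46 and 0.41 (adjusted p = 0.128, 0.272 and 0.159). These fits hold 6, 5 and 6 arrays, so they also test with fewer samples.

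Most measured genes with these promoter elements did not pass. Of all genes, 2.00% passed. Of 20 measured genes with the ER stress response element in their window, Hspa5 and Creld2 rose and 0 fell, 12 differences were above 0 and the median was 0.06. Calr and Syvn1, a calcium-binding lectin and a ubiquitin ligase of the reticulum, read 0.35 and 0.29 without passing, and the lectin Canx read -0.02. Of 88 measured genes with the longer heat shock element 0 passed limma, 45 differences were above 0 and the median was 0.00. An unadjusted p under 0.05 was seen for 18 of these 88 genes, and for 3307 of all 18193 genes (18.2%). The element TGACGTGG stood in the windows of 143 measured genes, of which 1 rose, Txndc5, and 2 fell. With the related element of Dnajb11, 0 of 9 passed. With the short heat shock element, 12 of 1089 rose and 11 fell.

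None of the stress-inducible chaperones of the cytosol passed limma. All 9 such genes had a mean of at least 8. Of all genes that bright, 66.1% were above 0 and 13.0% were higher at an unadjusted p under 0.05. Of the 9 genes 8 differences were above 0, 4 had such a p, all higher, and the median was 0.17. Their summed signal overlapped, at 15.40 to 15.57 on control and 15.44 to 15.67 on daDREAM arrays. The list also holds the constitutive Hsp70 gene Hspa8. That sum is weighted to the brightest genes, Hspa8 (mean 14.16) and Hsp90aa1 (13.66), which differed by 0.05 and 0.07. It says little about the dimmer genes. Hspa1a, the inducible Hsp70, read 8.39, 8.50, 8.18 and 8.02 in control and 8.65, 8.96, 8.60 and 8.65 in daDREAM ganglia. The groups did not overlap, daDREAM replicate 2 stood above the rest, and the difference was 0.44 (SE 0.12, 95% interval 0.19 to 0.70, limma adjusted p = 0.0844). Hspa1b, its near-identical neighbour on chromosome 17, read 10.27, 10.14, 9.60 and 9.42 against 10.11, 10.59, 10.15 and 10.38. Here control replicates 1 and 2 lay within the daDREAM range, and the difference of 0.45 (SE 0.18) had an adjusted p of 0.228. The other Hspa1b probe sets differed by 0.64 and 0.72 without overlap (adjusted p = 0.128 and 0.0636 over probe sets). Since the coding sequences are nearly the same, signal cannot be assigned to 1 copy with certainty.

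Among their partners, Dnajb1, the inducible J protein of Hsp70, read 10.33, 10.36, 10.18 and 10.39 in control and 10.56, 10.73, 10.45 and 10.59 in daDREAM ganglia. Its groups did not overlap (difference 0.27, limma adjusted p = 0.130), and the second probe set differed by 0.34, also without overlap (adjusted p = 0.0984 over probe sets). Hspa4l, an Hsp110 exchange factor, read 10.77, 10.65, 10.56 and 10.70 against 10.96, 11.10, 10.89 and 10.87, a difference of 0.29 (adjusted p = 0.0983). All 5 of its probe sets were above 0, from 0.13 to 0.46, and none passed. The Hsp110 gene Hsph1 read 11.43, 11.31, 11.49 and 11.40 against 11.42, 11.79, 11.69 and 11.43. Only daDREAM replicates 2 and 3 were above control, and the difference was 0.17 (adjusted p = 0.353).

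The other cytosolic chaperones of this list differed little between groups at their brightest probe sets. The constitutive Hsp70 gene Hspa8 read 14.24, 14.14, 14.01 and 14.13 in control and 14.23, 14.23, 14.21 and 14.05 in daDREAM ganglia (difference 0.05, 95% interval -0.12 to 0.22). The inducible Hsp90 gene Hsp90aa1 differed by 0.07 (-0.10 to 0.24), its J protein partner Dnaja1 by 0.03 (-0.13 to 0.19) and the small heat shock gene Hspb8 by -0.03 (-0.23 to 0.17). These intervals, of the brightest probe sets, leave out a difference as large as that of Hspa5. The other Hspa8 probe sets differed by 0.07, 0.18 and, at the dimmest, -0.45 (limma adjusted p = 0.0763 over probe sets). Those of Hspb8 differed by 0.24 and -0.05 without passing.

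Hspa4, the Hsp110 known as Apg-2, was the other Hspa gene with a probe set past the test. Its brightest read 10.07, 10.10, 9.91 and 9.89 in control and 10.34, 10.24, 10.13 and 10.14 in daDREAM ganglia, without overlap (difference 0.22, limma adjusted p = 0.194). The third read 9.42, 9.46, 9.41 and 9.28 against 9.76, 9.82, 9.77 and 9.69 and gave a rise of 0.37 (adjusted p = 0.0172 over probe sets). The other probe sets differed by 0.12 and 0.03. Over the 13 Hspa genes 11 differences were above 0 (84.6%) and 7 had an unadjusted p under 0.05 (53.8%), all higher. Groups did not overlap in 5 (38.5%), all higher. Of the 13, 11 had a mean of at least 8. Of all genes that bright, 66.1% were above 0, 13.0% were higher at that p and 11.4% had groups without overlap. The median was 0.20, the highest of the 4 families with at least 9 genes: Dnajb stood at 0.05, Dnajc at 0.11 and Hspb at -0.03. The median level of Hspa was also the highest of these 4, at 10.08 against 9.22, 9.13 and 8.15. The part of level in this order was not tested. Hspa12a, an atypical Hsp70, read 11.17 to 11.54 in control and 11.20 to 11.37 in daDREAM ganglia, a difference of -0.03.

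**Figure D4:**
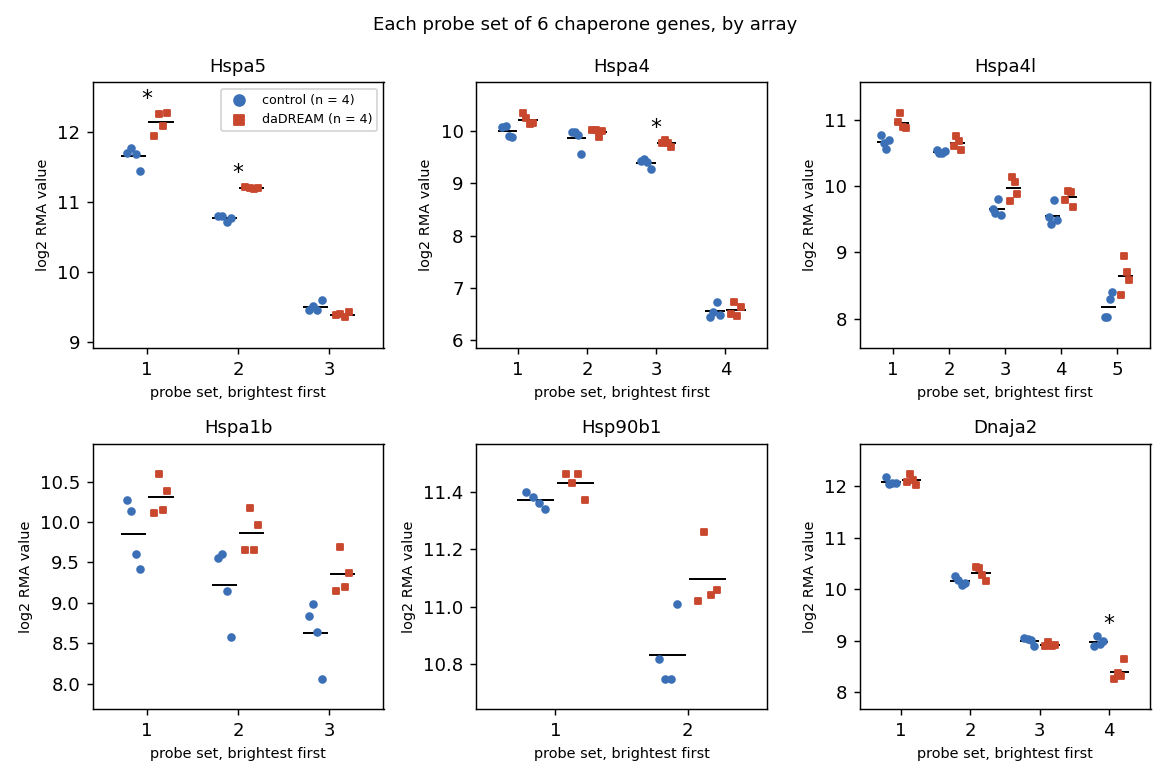
Log2 RMA values (y axis, a scale for each panel) on every array for each probe set of 6 chaperone genes, brightest first; blue circles are control arrays, red squares daDREAM arrays, black bars means of 4 arrays, and an asterisk marks a limma adjusted p under 0.05 over all probe sets. In Hspa5 the first and second probe sets are marked as higher and the third lies slightly lower, in Hspa4 the third is marked as higher, and in Dnaja2 the dimmest is marked as lower.

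Probe sets of 1 gene often differed. Of the 180 chaperone probe sets 5 passed limma over all probe sets, 3 higher and 2 lower, against 1.42% and 1.32% of all probe sets in these directions. The lower pair were weaker probe sets of genes whose brightest probe set did not move with them. For Dnaja2, a J protein of cytosolic Hsp70, the dimmest of 4 read 8.90, 9.09, 8.94 and 8.99 in control and 8.26, 8.37, 8.31 and 8.64 in daDREAM ganglia, and fell by 0.58 (adjusted p = 0.00460). The brightest Dnaja2 probe set differed by 0.02. The dimmest, at a mean of 8.69, passed in all 8 fits without 1 array (limma adjusted p = 0.00139 to 0.0223). It was kept without the arrays highest in Acta1 (limma adjusted p = 0.0332), those highest in Gh (0.0321) or the control arrays lowest in Gfap (0.0311). With an unequal-variance test it did not pass (adjusted p = 0.149). For Dnajc11, a mitochondrial J protein, the third fell by 0.37 (adjusted p = 0.0170) while the brightest read 0.11. Of 48 chaperones with several probe sets, 20 had all of them on 1 side of 0.

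The mitochondrial chaperones, 6 genes with a mean of at least 8, were all slightly above 0 at their brightest probe sets. Of all genes that bright, 66.1% were above 0. Over all probe sets, Hspa9 had 3 above 0 and 2 below, Dnaja3 2 and 1, and Dnajc11 3 and 1. Of 6 genes 0 passed limma and 1, Hspa9, had an unadjusted p under 0.05, and differences ran from 0.06 to 0.20 with a median of 0.12. Their summed signal was 13.33 to 13.46 on control and 13.47 to 13.59 on daDREAM arrays, without overlap, while their median level overlapped (10.32 to 10.52 and 10.50 to 10.64). Hspa9, the Hsp70 of the matrix known as mortalin, read 10.62, 10.65, 10.57 and 10.55 against 10.76, 10.92, 10.80 and 10.70 (difference 0.20, limma adjusted p = 0.189). The chaperonin subunits Hspd1 and Hspe1 differed by 0.12 and 0.06 (adjusted p = 0.404 and 0.628), and their groups overlapped. The J proteins Dnaja3, Dnajc11 and Dnajc15 differed by 0.07, 0.11 and 0.12.

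Cochaperones of synaptic vesicles and clathrin coats did not pass, and 0 of the 4 had an unadjusted p under 0.05. Dnajc6, the auxilin that strips clathrin with Hspa8, read 11.14, 11.07, 11.22 and 10.76 in control and 11.28, 11.31, 11.35 and 11.13 in daDREAM ganglia, and control replicate 4 lay lowest (difference 0.22, limma adjusted p = 0.281). Dnajc5, the cysteine string protein of vesicles, differed by 0.12 at its brightest probe set. All 5 Dnajc5 probe sets were above 0, up to 0.42. Dnajc13, a J protein of endosomes, read 9.67 to 9.95 against 9.61 to 9.77, a difference of -0.10. The summed signal of these 3 genes and Hspa8 was 14.40 to 14.59 on control and 14.42 to 14.60 on daDREAM arrays.

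Small heat shock proteins showed no shared sign. Of the 4 that are typical of muscle, Hspb2, Hspb3 and Hspb7 read -0.03, -0.10 and -0.20 and Hspb6 read 0.00, none past the test. The summed signal of these 4 was 9.43 to 9.58 on control and 9.35 to 9.71 on daDREAM arrays. The largest difference among the 9 Hspb symbols was that of Hspbap1, at 7.50, 7.56, 7.70 and 7.80 against 7.17, 7.47, 7.29 and 7.52 (difference -0.28, limma adjusted p = 0.181). Hspbp1 differed by 0.23 (adjusted p = 0.242), and Hspb11, a component of ciliary transport, by 0.15 without overlap (adjusted p = 0.299).

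Among the other J proteins, Dnajb2, a neuronal J protein that brings clients to the proteasome, read 10.21, 10.38, 10.35 and 9.88 in control and 10.49, 10.61, 10.59 and 10.37 in daDREAM ganglia. The groups overlapped by 1 array (difference 0.31, limma adjusted p = 0.183). The 2 chaperones with groups apart in the lower direction were dim: Dnajb13, a J protein of cilia and sperm tails, at 5.72 to 5.89 against 5.48 to 5.71, and Dnajc5g, a relative of Dnajc5, at 6.05 to 6.57 against 5.77 to 6.04. Their differences of -0.21 and -0.33 did not pass (adjusted p = 0.189 and 0.192). Of the other Dnaj genes Dnaja4 read 0.15, Dnajb4 0.15, Dnajb6 -0.02, Dnajc7 0.05 and Dnajc8 -0.01, all short of the test. The 28 chaperones not singled out here differed by -0.29 to 0.32, with a smallest adjusted p of 0.188.

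Heat shock factors and other cytosolic cochaperones gave the same count as the cytosolic chaperones. Of 27 measured genes of a list of 29, 0 passed limma or an unequal-variance test, and the median was 0.06. An unadjusted p under 0.05 was seen for 7 (25.9%), 6 higher and 1 lower. A mean of at least 8 was seen in 25 of the 27, and 18.5% of all genes that bright had such a p. Chordc1, an Hsp90 cochaperone, read 10.51, 10.39, 10.30 and 10.19 in control and 10.56, 10.74, 10.82 and 10.61 in daDREAM ganglia, without overlap (difference 0.34, limma adjusted p = 0.0898). Fkbp4, an immunophilin of Hsp90, read 0.30 (adjusted p = 0.161). Among 12 immediate early genes 0 passed limma and 3 had an unadjusted p under 0.05 (25%, against 18.2% of all genes). Of these, Jun read 0.36 (limma adjusted p = 0.0776) and Fos 0.43 (adjusted p = 0.103). The third was Egr2, named after its value was seen, at -0.41 (limma adjusted p = 0.218). Cirbp, an RNA-binding protein induced by cold, read -0.28 (adjusted p = 0.456).

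Single arrays stood apart, and markers of neighbouring tissue differed between groups too. Control replicate 4 was the lowest control array for 38 of 76 chaperones (50%, against 37.4% of all genes), and control replicate 1 the highest for 31 (40.8% against 26.8%). Sensory neuron markers were present, 13 measured at a median level of 12.24 with 0 past the test, and the 7 glial and 9 macrophage markers had 0 past it too (0, 1 and 2 at an unadjusted p under 0.05). Central nervous system markers were above 0 in 10 of 10, with 1 past the test (Aqp4) and 5 at an unadjusted p under 0.05, all higher. Their summed signal was 12.29 to 13.28 in control and 13.27 to 13.75 in daDREAM ganglia. Their median level did not overlap, at 8.10 to 8.99 on control and 9.02 to 9.67 on daDREAM arrays. Blood and marrow markers had 3 of 7 past the test and summed to 9.74 to 10.13 against 10.38 to 10.54. Of 6 endothelial markers Cldn5 rose, with sums of 10.43 to 10.73 against 10.72 to 10.92. The endothelial median level did not overlap, at 7.52 to 7.76 on control and 7.78 to 7.92 on daDREAM arrays. Muscle markers summed to 12.19 to 12.93 against 12.37 to 12.66 and pituitary markers to 10.27 to 12.69 against 10.02 to 14.19, with 0 of 15 and 0 of 7 past the test. Of the 15 muscle markers 14 were below 0, with a median of -0.51, and 11 had an unadjusted p under 0.05 (10 lower, 1 higher). Their median level was 6.81 to 7.94 on control and 6.70 to 6.89 on daDREAM arrays. All 7 pituitary markers were above 0, and 0 had an unadjusted p under 0.05. The part of these markers in the chaperone values was not tested. In whole ganglia, a change in the number of cells of a type cannot be told apart from a change in RNA per cell. The 3′ over 5′ log2 ratio of the Actb control probe sets was 0.74 to 0.96 on control and 0.77 to 0.89 on daDREAM arrays.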

How the data were processed

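The 8 arrays were deposited as log2 expression values, and per the submitters' processing notes the authors made them by RMA with the affy package. No package version, scan date or genome build is given. RMA includes quantile normalization, so a difference is relative to most other genes. Of 45101 probe sets, 64 Affymetrix controls were left out; 34945 carried a single symbol in GEO's platform annotation, 932 several and 9160 none. All 76 members matched RefSeq gene identifiers of GRCm38.p6, the source of the promoter sequences. Groups were compared with limma (version 3.58.1, R 4.3.3), using lmFit and eBayes with group as the only term, two-sided, with Benjamini-Hochberg adjustment over 18193 genes or 45037 probe sets. The plots used matplotlib 3.10.9 and Python 3.11.15. Precision is limited by the number of arrays.

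The members and lists were chosen with earlier results of these data known. Named members are those past the test, those with an unadjusted p under 0.05 and groups that do not overlap, the 3 brightest and the 1 with the largest difference in each family, and all members of 5 sublists; of other lists, genes past the test or otherwise the 2 with the smallest p. As alternatives, a replicate block, 2 further normalizations, 2 filters on dim probe sets, 2 other choices of probe set, array weights, another prior for the variance, an unequal-variance test, an adjusted p under 0.1 and fits without some arrays were tried.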

Additional observations from a re-analysis of the deposited data

Results flagged for a closer look

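In 102 sets of 4 arrays, 1 per named gene and group, the highest or lowest array was checked for a gap to the others by Dixon's ratio at its 95% critical value, which chance exceeds in about 1 of 20 sets. It was exceeded in 5. Hspa1a, the inducible Hsp70, read 8.96 on daDREAM replicate 2 and 8.60 to 8.65 on the other daDREAM arrays, still above every control array. Hspa8, the constitutive Hsp70, read 14.05 on daDREAM replicate 4 and 14.21 to 14.23 on the others. Hspe1, the small chaperonin subunit, read 11.22 on the same array and 11.27 to 11.28 on the others. Dnaja2, a J protein, read 12.18 on control replicate 1 and 12.05 to 12.07 on the others. Pdia4, a disulfide isomerase, read 8.20 on control replicate 3 and 8.59 to 8.63 on the others.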

How the results depend on the processing

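The count of chaperones past the limma test (1, higher) became 2, both higher, with the replicate block, 4 (2 higher and 2 lower) with the most variable probe set of each gene and 3, all higher, at an adjusted p under 0.1. It became 0 with an unequal-variance test and without the arrays highest in Acta1, those highest in Gh or the control arrays lowest in Gfap, the last chosen after seeing the data. The count of chaperone probe sets past the test (5) was 9, 13, 1, 1, 1 and 2 with the block, at 0.1, with the unequal-variance test and without these arrays in turn. The count for the unfolded protein response (3) was 5 at 0.1 and 0 in the last 4 of these settings, and that for cytosolic cochaperones (0) was 1 with the most variable probe set and 1 at 0.1. Leaving out 1 array gave 0 to 1 chaperones (0 to 1 higher), 2 to 7 probe sets and 2 to 5 genes of the unfolded protein response. Whether a shared replicate number pairs arrays is not settled by the labels: correlations of deviations were 0.21, 0.006, 0.33 and 0.36, so that 1 of 4 pairs showed none, and 5 of 8 arrays correlated best with their own number. The block added Hspa1a (limma adjusted p = 0.0180).

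Signs turned in genes whose difference was near 0 or whose probe sets disagree, and the cause was not tested. Renewed quantile normalization gave Dnaja1 -0.0089, Dnaja2 -0.0088 and Hspb6 -0.0417. Median centring gave Dnajc3 0.01 and Dnajc8 0.0025, and array weights gave Dnajc3 0.0189, Hspa12a 0.0136 and Hspb6 -0.0166. The mean over probe sets gave Dnaja1 -0.0533, Dnaja2 -0.121, Dnajb6 0.0356, Dnajc11 -0.015, Dnajc3 0.0765, Dnajc8 0.0662, Hsp90aa1 -0.008, Hspa12a 0.0688, Hspa8 -0.0381 and Hspb8 0.0542. The most variable probe set gave Dnaja1 -0.158, Dnaja2 -0.585, Dnaja3 -0.11, Dnajb6 0.0875, Dnajc11 -0.375, Dnajc13 0.0875, Dnajc8 0.142, Hspa12a 0.295, Hspa8 -0.45, Hspb11 -0.035 and Hspb8 0.237. Without the arrays highest in Acta1, Dnajb6 read 0.035 and Dnajc8 0.0175; without those highest in Gh, Dnajb6 read 0.0167. Without the control arrays lowest in Gfap, Dnaja3 read -0.0125, Dnajc3 0.11, Hspa12a 0.035 and Hspb6 -0.05. With 1 array left out the ranges crossed 0 for Dnaja1 (-0.0108 to 0.0625), Dnaja2 (-0.0167 to 0.0533), Dnajb6 (-0.0467 to 0.0233), Dnajb9 (-0.005 to 0.0917), Dnajc3 (-0.0708 to 0.0392), Dnajc8 (-0.0408 to 0.0525), Hspa12a (-0.0817 to 0.0417), Hspb2 (-0.182 to 0.0483), Hspb6 (-0.0267 to 0.07) and Hspb8 (-0.0708 to 0.0458). Hspa5 stayed above 0 in every setting run, at 0.27 with the mean over probe sets and 0.41 to 0.55 otherwise. Signal limits the dimmest genes: 6 chaperones had a mean under 6, near background, where a difference could be missed.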
